A study of Mus musculus with 4 samples.

Results

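The genes described here are 10 members of the transforming growth factor beta (TGF-β) superfamily pathway, of 32285 gene identifiers in each deposited file: the ligands Tgfb1, Tgfb2 and Tgfb3, the receptors Tgfbr1, Tgfbr2 and Tgfbr3, myostatin (Mstn), follistatin (Fst), and the activin type II receptors Acvr2a and Acvr2b. They were chosen by name and found by symbol in all 4 files. The cells were mouse skeletal muscle stem cells of the genotype MyoD-KI, grown in culture for 5 days in DMEM and Ham's F12 with 20% fetal bovine serum, antibiotics and Ultraser G, and then sorted for high MyoD-tdTomato signal. tdTomato is a red fluorescent reporter, read here for MyoD (gene Myod1), a transcription factor of muscle commitment. All cells share this genotype, culture and sort, so there is no other genotype, no untreated group and no uncultured cell to compare with, and the MyoD-tdTomato low cells that the protocol names were not analysed here. The labels do not give the age or number of the mice or say how the knock-in allele was built. Libraries were made with 10x Genomics 3-prime chemistry, in which each captured transcript carries a unique molecular identifier (UMI).

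The 4 labelled replicates are not independent. Each pair of files shares at least 99.9% of the cell barcodes of the smaller file, and the total UMIs of shared barcodes correlate at r = 0.9997 in each pair. They were therefore counted as 1 sample, as libraries that read the same cells again. There is no test between conditions and no p-value. Files that do not overlap between groups show that repeat reads of the same cells gave like levels. The share of all genes that do so was not counted. Each level below is a mean over the 4 files, and each interval is an exact 95% interval at the mean count of 1 file, which covers counting error only.

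TGF-β ligands are secreted in latent complexes and are released outside the cell. TGF-β1 and TGF-β3 are released, among other ways, by integrins that contain β6 or β8 subunits. Released ligand binds the type II receptor TGFBR2, which activates the type I receptor TGFBR1, which in turn phosphorylates SMAD2 and SMAD3. Betaglycan, the product of Tgfbr3, is a coreceptor that presents ligand and matters most for TGF-β2. Myostatin is a secreted brake on muscle growth that signals through ACVR2B and ACVR2A, and follistatin is a secreted protein that binds and blocks myostatin and activins. In cultured myoblasts, added TGF-β or myostatin is known to hold back differentiation.

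Of 5944 barcodes present in all 4 files, 5481 were kept (a mean of at least 1000 genes and under 10% mitochondrial UMIs). Of these, 5197 reached 5000 UMIs in every file. Groups of cells and their levels use these 5197 cells, and shares of cells with a UMI were taken after thinning each of them to 5000 UMIs per file. Levels are given as CPM, the UMIs of a gene divided by all UMIs of the group and scaled to 1000000. The sorted cells were myogenic: Myod1 stood at 507 CPM, Des (desmin) at 1168 CPM and Myog (myogenin, which drives terminal differentiation) at 1810 CPM. Cells were placed in bins of Myog, with 1760 cells under 100 CPM, 970 at 100 to under 1000, 1412 at 1000 to under 4000 and 1055 at 4000 or more. The bins differ in other ways that touch every result by Myog. From the lowest to the highest, the share of cells with a Pax7 UMI in at least 1 of the 4 thinned files (Pax7 is the transcription factor that marks muscle stem cells) ran from 77.2% to 3.89%, and the share of dividing cells, with 500 CPM or more of Mki67 plus Top2a, from 38.9% to 2.94%. Cells are called with or without Pax7 by this rule, and those without may hold Pax7 UMIs that thinning removed. Summed levels of endothelial, leukocyte and Schwann cell markers stayed at or under 2.16 CPM in every bin. The sum of the pericyte and smooth muscle markers was 553 CPM in the lowest Myog bin and 3290 CPM in the highest. Most of it was Acta2 (smooth muscle α-actin), at 422 and 3277 CPM. Of 6 fibroblast markers, Pdgfra, Dcn, Lum and Col1a1 stood under 1 CPM, while Col3a1 stood at 109 CPM and Ly6a at 29.7 CPM over all cells. Cd34 and Calcr, markers of muscle stem cells at rest, were nearly absent at 0.257 and 0.266 CPM. The other genes on the list of muscle stem or progenitor markers were present. Pax7 stood at 56.4 CPM, Sdc4 at 54.3, Myf5 at 53.6, Itga7 at 49.6 and Vcam1 at 17.0 CPM.

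The promoters of Mstn, Tgfb1 and Tgfb2 are shown because these secreted factors took different courses along Myog: Mstn was nearly absent under 100 CPM of Myog, Tgfb1 was highest there and lowest at 4000 CPM or more, and Tgfb2 was abundant throughout. Myogenic factors such as MyoD and myogenin bind E-boxes, whose letters are CANNTG, a motif that reads the same on both strands. The 250 bases before each annotated start are printed 5′ to 3′ on the gene's strand, from RefSeq on GRCm38.p6, with each CANNTG in capitals. They lie at chr1:53061390-53061639 (+) for Mstn, chr7:25686752-25687001 (+) for Tgfb1 and chr1:186705990-186706239 (-) for Tgfb2.
Mstn: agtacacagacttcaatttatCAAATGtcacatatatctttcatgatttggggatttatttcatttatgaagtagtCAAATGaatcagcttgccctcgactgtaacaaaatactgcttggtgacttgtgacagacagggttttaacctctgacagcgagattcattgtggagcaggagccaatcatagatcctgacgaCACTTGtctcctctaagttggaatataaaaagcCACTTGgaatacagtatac
Tgfb1: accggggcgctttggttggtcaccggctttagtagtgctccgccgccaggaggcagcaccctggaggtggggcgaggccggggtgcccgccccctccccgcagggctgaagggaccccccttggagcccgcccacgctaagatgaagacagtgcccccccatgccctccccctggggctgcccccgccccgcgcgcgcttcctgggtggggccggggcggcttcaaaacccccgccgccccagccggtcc
Tgfb2: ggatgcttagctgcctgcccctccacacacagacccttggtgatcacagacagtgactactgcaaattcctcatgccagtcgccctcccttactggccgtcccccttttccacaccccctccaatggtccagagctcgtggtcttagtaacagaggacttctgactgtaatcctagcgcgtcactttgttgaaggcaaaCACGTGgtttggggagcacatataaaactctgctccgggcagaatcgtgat

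The Mstn window held 4 matches, CAAATG at 229 and 174 bases and CACTTG at 52 and 19 bases before the start. The Tgfb2 window held 1 match, CACGTG at 51 bases before the start, and the Tgfb1 window held 0. Of 32851 RefSeq promoter windows of this length, 66.2% held at least 1 CANNTG and 3.84% held 4 or more. A form often bound by myogenic factors, CAGCTG, is one of the CANNTG forms and was in 13.0% of all windows and in 0 of these 3. The windows differ also in base composition, with 38.4% G and C for Mstn, 75.2% for Tgfb1 and 53.6% for Tgfb2. A match is a description of the letters and no evidence of binding. Sequences were found for 7 of the 10 members, and those of Tgfb3, Tgfbr3 and Fst were not used here.

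All 10 members are annotated as protein-coding genes by GENCODE M21, whose GRCm38 coordinates are given by Ensembl ID. The authors' own build may be another. The ligand genes are Tgfb1 (ENSMUSG00000002603) at chr7:25687002-25705077 (+), Tgfb2 (ENSMUSG00000039239) at chr1:186622792-186705989 (-) and Tgfb3 (ENSMUSG00000021253) at chr12:86056745-86079041 (-). The TGF-β receptor genes are Tgfbr1 (ENSMUSG00000007613) at chr4:47353222-47414931 (+), Tgfbr2 (ENSMUSG00000032440) at chr9:116084293-116175360 (-) and Tgfbr3 (ENSMUSG00000029287) at chr5:107106570-107289629 (-). Myostatin and its inhibitor are Mstn (ENSMUSG00000026100) at chr1:53061640-53068079 (+) and Fst (ENSMUSG00000021765) at chr13:114452290-114458951 (-). The activin type II receptor genes are Acvr2a (ENSMUSG00000052155) at chr2:48814109-48903269 (+) and Acvr2b (ENSMUSG00000061393) at chr9:119402118-119434995 (+). UMIs are counted over the whole gene, so no exon, intron or isoform is told apart.

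Over all 5481 kept cells, Tgfb2 was the leading member at 204 CPM (interval 200.3 to 207). A 3-prime UMI counts a molecule once whatever its length, so levels are compared between genes without division by length. Where the authors' counting took in intronic reads, long genes such as Tgfbr3 (183060 bases) would read high beside short ones such as Mstn (6440 bases) and Fst (6662 bases). Fst followed at 45.1 CPM (43.4 to 46.7), then Acvr2a at 37.0 (35.5 to 38.5), Tgfb3 at 30.8 (29.5 to 32.2), Tgfbr1 at 28.1 (26.9 to 29.5) and Tgfb1 at 26.3 (25.1 to 27.6). Tgfbr2 at 14.6 CPM (13.7 to 15.6) and Tgfbr3 at 13.5 CPM (12.6 to 14.4) came next and their intervals overlap. Acvr2b at 1.83 CPM (1.51 to 2.18) and Mstn at 1.74 CPM (1.43 to 2.08) were lowest, with 120.0 and 114 UMIs per file. Among neighbours in this order, the interval of Tgfbr1 overlaps that of Tgfb1 and ends just below that of Tgfb3, and those of Acvr2b and Mstn overlap.

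**Figure D1:**
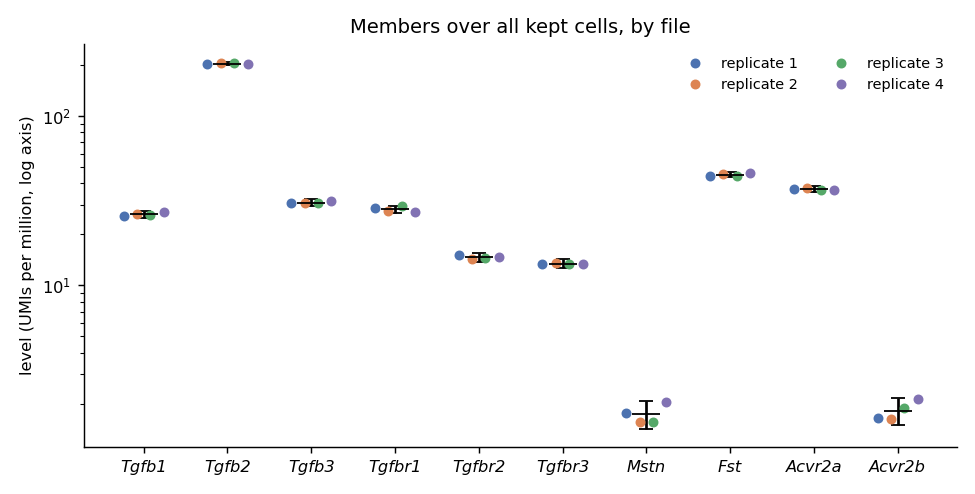
Level of each of the 10 genes over all kept cells on a log axis (CPM). Coloured points are the 4 files, the black bar is their mean and the whiskers are the exact 95% Poisson interval at the mean count of 1 file; the files sit within or near the whiskers, and Tgfb2 stands at 204 CPM above all others.

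How a level was spread over cells differed between the genes. At 5000 UMIs per file, a Tgfb2 UMI was found in 48.4% of cells (47.0 to 49.8), Acvr2a in 15.8%, Tgfb3 in 13.7%, Fst in 12.4%, Tgfbr1 in 12.3%, Tgfb1 in 11.8%, Tgfbr2 in 7.0%, Tgfbr3 in 5.13%, Acvr2b in 0.890% and Mstn in 0.731%. No cell type without these genes is present to set a background share. Had the same UMIs been spread evenly over cells of equal depth, Fst would have been found in 20.2% of cells in place of 12.4%, Tgfbr3 in 7.24% in place of 5.13%, and Tgfb2 in 66.6% in place of 48.4%. For the other 7 genes the ratio of the observed to the even share was lowest for Mstn, at 0.925. Before thinning, over the 4 files together, the 5% of cells richest in Tgfbr3 held 71.1% of its UMIs, against 31.5% for Tgfbr2. Cells were not of equal depth for this share, and it reads high for rare genes, such as Mstn at 100%. The 5% of cells richest in Fst held 58.9% of its UMIs, against 26.1% for Tgfb2. These cells recurred between files: a cell with a Fst UMI in 1 file had one in another file in 55.1% of cases, and with Tgfbr3 in 43.7%, against 27.0% for Tgfb1, whose share of cells in a file is close to that of Fst. The ratio of observed to even share can hardly fall for a gene with few UMIs per cell, so these ratios do not rank the members.

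The 3 TGF-β ligand genes went different ways with Myog. Tgfb1 was lower in each bin than in the one before, Tgfb3 was higher in the upper bins, and Tgfb2 kept most of the ligand UMIs in every bin. Tgfb1 stood at 42.3 CPM (39.6 to 45.1) under 100 CPM of Myog, 32.4 in the next bin, 16.1 in the third and 6.0 (4.70 to 7.59) at 4000 CPM or more. In the 4 files its level was 41.4, 42.0, 43.1 and 42.7 CPM in the lowest bin and 5.64, 6.84, 6.25 and 5.26 CPM in the highest. Every file's lowest-bin level lay above every highest-bin level, and the log2 ratio of the highest to the lowest bin (on CPM plus 1, as are all ratios here) was -2.63 (-2.94 to -2.32). The share of cells with a Tgfb1 UMI was 19.5% (17.7 to 21.4) and 2.46% (1.62 to 3.59). Among 10 equal groups of the cells ranked by Myog, Tgfb1 was 48.0 CPM in the first and 5.34 CPM in the last.

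Tgfb3 stood at 15.6 CPM (13.9 to 17.3) in the lowest Myog bin, 18.0 in the next, 40.7 in the third and 54.9 (50.7 to 59.3) in the highest. Its level in the 4 files was 16.8, 14.1, 14.9 and 16.5 CPM in the lowest bin and 54.3, 57.5, 54.3 and 53.3 CPM in the highest. The files did not overlap between these bins, and the log2 ratio was 1.76 (1.57 to 1.94). The lowest 2 bins overlap in their intervals, so that the step lay between cells under and over 1000 CPM of Myog. By the 10 ranked groups, Tgfb3 stayed between 14.9 and 17.6 CPM in the lowest 5, and was 30.8 CPM in the sixth, where the median Myog level was 1284 CPM.

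Tgfb2 was 188 CPM (182 to 194) in the lowest Myog bin and 217 CPM (208 to 225) in the highest, a log2 ratio of 0.20 (0.13 to 0.27). Its files read 188, 190, 187 and 188 CPM in the lowest bin and 217, 217, 216 and 217 in the highest. The files do not overlap but the step is small, and its direction depended on the cells compared. Among cells under 50 CPM of Mki67 plus Top2a the log2 ratio was -0.42 (-0.51 to -0.32), with 301 CPM in the lowest Myog bin and 225 CPM in the highest. Among cells without Pax7 it was 0.92, and with thinned UMIs it was -0.03.

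The makeup of the ligand UMIs followed from these levels. In the lowest Myog bin Tgfb1 gave 17.2% of the UMIs of the 3 genes (16.2 to 18.2), Tgfb3 6.32% and Tgfb2 76.5%. In the highest bin Tgfb1 gave 2.16% (1.70 to 2.73), Tgfb3 19.8% and Tgfb2 78.1%. Their sum was nearly level, at 246 CPM in the lowest bin and 278 CPM in the highest. Tgfb1 and Tgfb3 were found together in 1.22% of thinned cells (0.937 to 1.55), where the product of their shares is 1.61%. Within the lowest Myog bin the values were 1.82% (1.25 to 2.56) and 1.60%, and within the highest 0.403% (0.116 to 1.00) and 0.576%, so that each interval within a bin held the product.

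**Figure D2:**
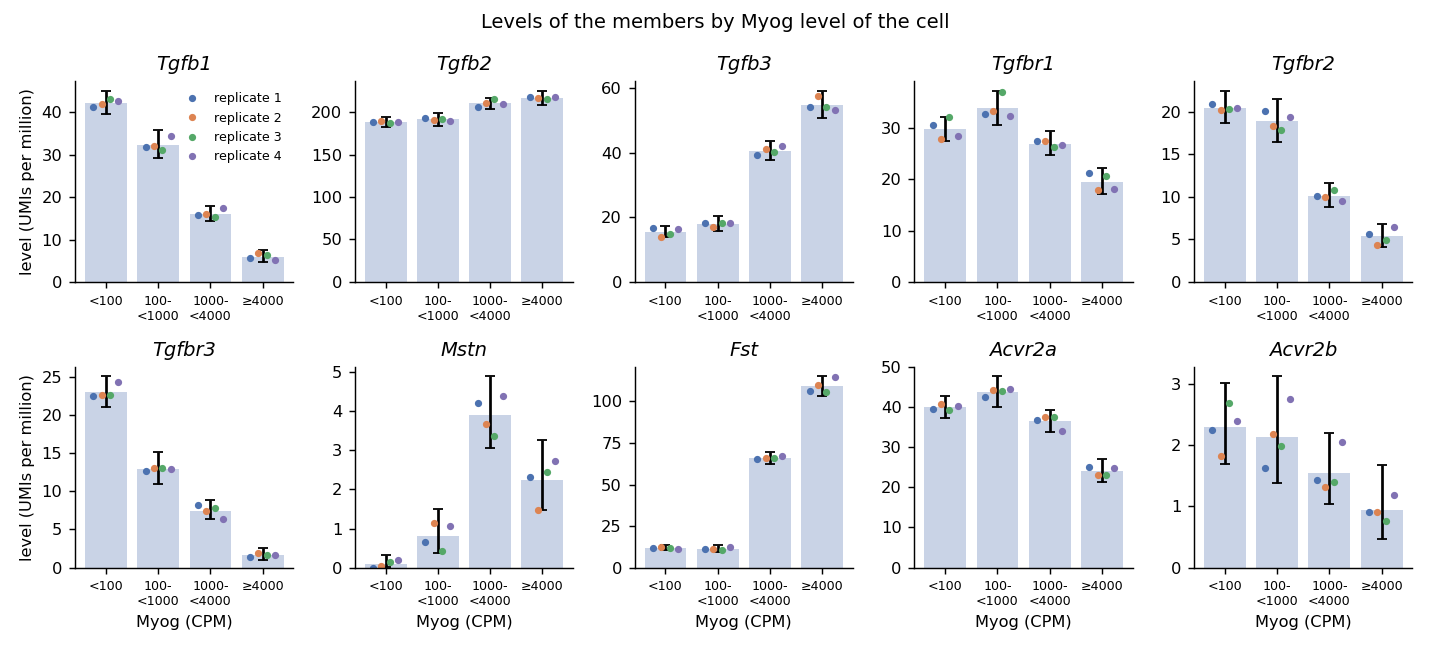
Level of each gene (CPM, linear axes from 0 that differ between panels) in 4 bins of cells by Myog level. Bars are means over files with exact 95% Poisson intervals and points are the 4 files; Tgfb1 goes from 42.3 to 6.0 CPM and Tgfbr3 from 23.0 to 1.64 CPM, while Fst goes from 11.9 to 109 CPM.

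All 3 TGF-β receptor genes were lower in the highest Myog bin than in the lowest, by unequal amounts. Tgfbr3, the coreceptor betaglycan, stood at 23.0 CPM (21.0 to 25.1) in the lowest bin, then 13.0, 7.46 and 1.64 (0.989 to 2.55). Its level in the 4 files was 22.5, 22.6, 22.5 and 24.3 CPM in the lowest bin and 1.41, 1.90, 1.61 and 1.63 CPM in the highest. The files lay far apart between the bins, and the log2 ratio was -3.19 (-3.61 to -2.74), the lowest among the members. Tgfbr2, the ligand-binding type II receptor, was 20.5 CPM (18.6 to 22.5) in the lowest bin and 5.36 CPM (4.10 to 6.83) in the highest, a log2 ratio of -1.77 (-2.10 to -1.43). Its files read 21.0, 20.2, 20.4 and 20.5 CPM in the lowest bin and 5.64, 4.37, 4.99 and 6.44 CPM in the highest, again without overlap. Tgfbr1, the type I receptor kinase, was 29.8 CPM in the lowest bin, 33.8 and 27.0 in the next, and 19.5 in the highest, with a log2 ratio of -0.59 (-0.80 to -0.37). That is near the median of all 13103 genes past the count filter, -0.38, so Tgfbr1 lay close to the middle of all genes. Col3a1, a fibroblast marker that these cells carry, moved the same way as the receptor genes and Tgfb1, from 162 to 40.7 CPM, and the sum of the 6 fibroblast markers went from 219 to 45.6 CPM. Pdgfra was at 0.814 and 0.0853 CPM and Dcn at 0.391 and 0.236 CPM in these bins, and the part of the list in the result was not tested.

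The summed level of the 3 receptor genes was 73.3 CPM in the lowest Myog bin and 26.5 CPM in the highest. Within that sum, Tgfbr1 went from 40.6% of UMIs (38.3 to 43.1) to 73.6% (68.4 to 78.5), Tgfbr3 from 31.4% to 6.23%, and Tgfbr2 from 28.0% to 20.2%. A UMI of both Tgfbr1 and Tgfbr2, taken over the 4 thinned files, was found in 10.9% of cells in the lowest bin (9.44 to 12.4) and in 2.18% in the highest (1.39 to 3.25). These shares are close to the products of the single shares, 10.6% and 2.17%.

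**Figure D3:**
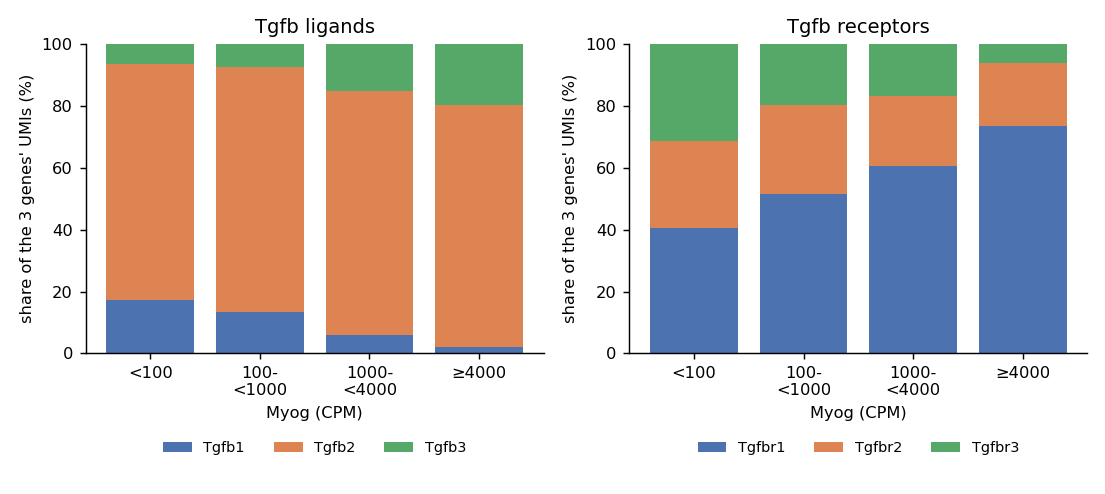
Share (%) of the UMIs of the 3 TGF-β ligand genes (left) and of the 3 receptor genes (right) that each gene gave, in 4 bins of Myog level. Tgfb2 holds 76.5% to 79.1% of the ligand UMIs in every bin while Tgfb3 takes the place of Tgfb1; among the receptors Tgfbr1 goes from 40.6% to 73.6%.

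Fst had the highest ratio of the members. It stood at 11.9 CPM (10.5 to 13.5) in the lowest Myog bin, 11.3 in the next, 66.1 (62.5 to 69.8) in the third and 109 (103 to 115) in the highest, with a log2 ratio of 3.09 (2.91 to 3.27). Its level in the 4 files was 12.1, 12.7, 11.7 and 11.2 CPM in the lowest bin and 106, 110, 106 and 115 CPM in the highest. The files of the 2 bins lay far apart, and the share of cells with a Fst UMI was 5.06% and 25.5%. Within the highest bin, an even spread of the same UMIs would give 41.1%.

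Mstn was rare in all bins. Its level was 0.0943 CPM (0.0111 to 0.332) in the lowest Myog bin, 0.815 in the next, 3.91 (3.07 to 4.89) in the third and 2.24 (1.46 to 3.26) in the highest. The 4 files held 0, 0.0445, 0.137 and 0.196 CPM in the lowest bin, from a mean of 2 UMIs per file, and 2.32, 1.48, 2.45 and 2.72 CPM in the highest, from 26.2 UMIs per file. The files did not overlap, and the log2 ratio was 1.56 (1.13 to 1.74). Because the lowest bin is nearly empty, this ratio rests on the pseudocount of 1: with 0.1 it was 3.68. With bins under 50 and at least 6000 CPM of Myog it was 0.94, under the 2-fold line, as Mstn was lower again in the cells richest in Myog. By the 10 ranked groups, Mstn was highest in the seventh at 4.27 CPM and was 1.42 CPM in the last. In cells outside the cycle the third bin stood at 5.39 CPM and the highest at 2.48 CPM, a log2 ratio of -0.89 (-1.41 to -0.34).

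Of the 5197 cells, 172 held a Mstn UMI in any file. Among cells at 1000 CPM or more of Myog, bins of Acta1 plus Myh3 (skeletal α-actin and embryonic myosin heavy chain, sarcomere genes), chosen after the values were seen, separated Mstn further. Its level was 0.457 CPM (0.0765 to 1.47) in 481 cells under 500 CPM of Acta1 plus Myh3, 0.991 (0.517 to 1.70) in 1021 cells at 500 to under 5000, and 6.72 (5.36 to 8.28) in 965 cells at 5000 or more. Over all cells, 79.4% of the Mstn UMIs lay in the 18.9% of cells with 5000 CPM or more of Acta1 plus Myh3. Fst was also graded by these bins, at 16.1, 52.3 and 140.2 CPM, and Tgfb3 less so, at 29.4, 42.1 and 57.1 CPM. The genes parted in the topmost bin of Acta1 plus Myh3. There Mstn was 10.1 CPM (7.73 to 12.9) in 409 cells at 1000 to under 4000 CPM of Myog and 3.64 CPM (2.32 to 5.36) in 556 cells at 4000 or more, while Fst was 141 and 139.7 CPM. Fst and Mstn did not mark the same cells to a visible degree there: 65.8% of those cells held Fst in any file, and 64.3% of their Mstn UMIs lay in cells with Fst. Over all cells they did overlap, with 56.9% of the Mstn UMIs in the 33.0% of cells that held Fst in any file.

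The activin type II receptors, through which myostatin signals, were both lower at high Myog, with ratios of CPM plus 1 under 2-fold. Acvr2a stood at 39.9 CPM (37.3 to 42.6) in the lowest bin, then 43.7, 36.4 and 24.0 (21.3 to 27.0), with a log2 ratio of -0.71 (-0.90 to -0.52). Its files read 39.4, 40.8, 39.1 and 40.3 CPM in the lowest bin and 25.1, 23.0, 23.2 and 24.8 CPM in the highest, without overlap, and with bins under 50 and at least 6000 CPM of Myog its ratio was -1.13, past 2-fold. Acvr2b, at 2.29 CPM (1.69 to 3.01) in the lowest bin and 0.940 CPM (0.467 to 1.67) in the highest, rests on 11 UMIs per file in the latter. Its log2 ratio was -0.76 (-1.25 to -0.21), past 2-fold with a pseudocount of 0.1 at -1.20. The median of all genes was -0.38. Counted from the lowest ratio, Acvr2a and Acvr2b lay at percentiles 34.9 and 33.2 of all genes, within their bulk.

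For the 10 members, all of which passed the filter of 50 UMIs per file, a change was counted when the log2 ratio of the highest to the lowest Myog bin was past 1 or -1 and had the same sign in all 4 files. By this count Tgfb3, Mstn and Fst were higher and Tgfb1, Tgfbr2 and Tgfbr3 were lower, with 4 members neither. Over all 13103 genes, 8.62% were higher and 25.5% lower, and the median log2 ratio was -0.38, beside -0.65 for the members. The same 3 were higher and the same 3 lower among cells under 50 CPM of Mki67 plus Top2a, where the background was 8.24% higher and 25.0% lower. In those cells the log2 ratio was -4.43 (-4.90 to -3.92) for Tgfbr3 and -2.25 (-2.65 to -1.83) for Tgfbr2. Most of this difference already stood between the lowest bin and that of 1000 to under 4000 CPM of Myog, again in cells under 50 CPM of Mki67 plus Top2a. There Mstn (2.59), Fst (2.63) and Tgfb3 (1.27) were higher and Tgfb1 (-1.66), Tgfbr2 (-1.54) and Tgfbr3 (-2.83) lower, beside 7.83% of all genes higher and 15.3% lower. From that bin to the highest, 2 members were past 2-fold, Tgfb1 (-1.08) and Tgfbr3 (-1.60), both lower, beside 2.31% of genes lower and 0.244% higher. Scaling by edgeR's TMM factors moved the median of all genes to -0.03 and that of DESeq2 to -0.01, with 12.4% and 12.6% of genes then higher and 17.5% and 17.2% lower. All 6 member calls stood under both.

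**Figure D4:**
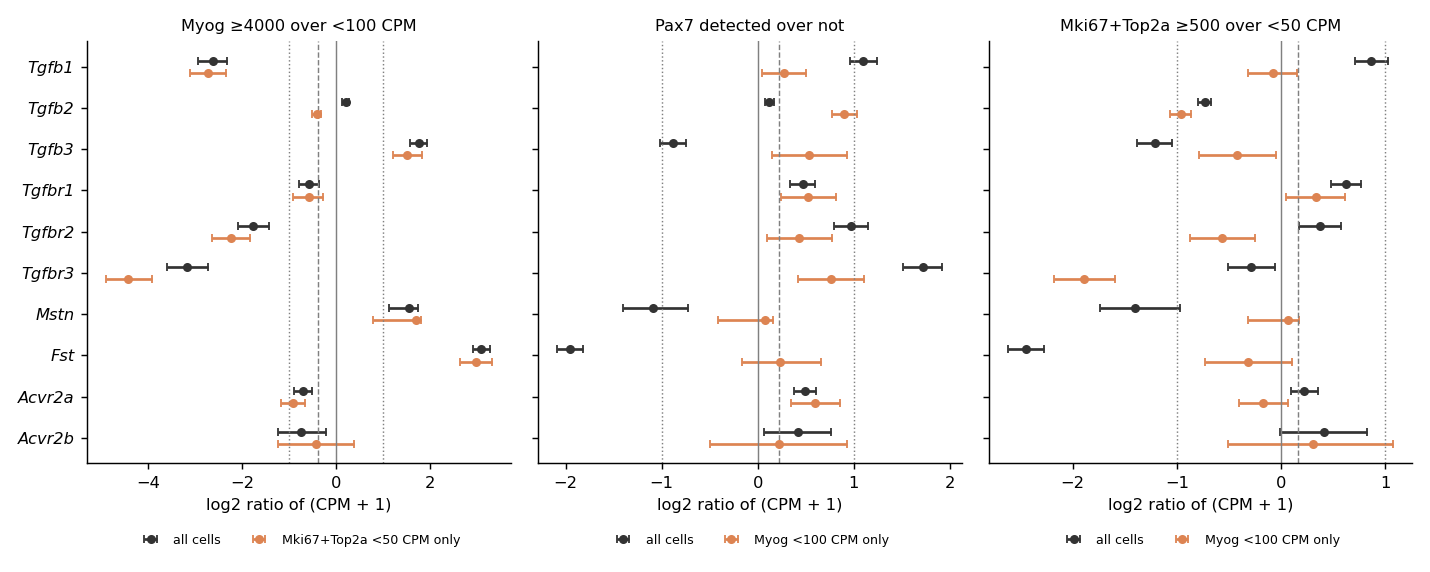
Log2 ratios of CPM plus 1 for the 10 genes in 3 comparisons of cells (Myog, Pax7 and Mki67 plus Top2a), with exact 95% conditional intervals; black points use all cells and orange points only the cells named in each legend. Dotted lines mark 2-fold and the dashed line the median of all genes; the Pax7 and the Mki67 plus Top2a ratios of Fst are -1.96 and -2.45 over all cells and 0.24 and -0.32 among cells under 100 CPM of Myog.

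By Pax7, Tgfbr3 and Tgfb1 were higher and Fst and Mstn lower in the 2222 cells with Pax7 than in the 2975 without. Pax7 itself stood at 9.65 CPM in the cells without it by this rule. Tgfbr3 stood at 21.3 CPM (19.7 to 23.1) with Pax7 and 5.76 CPM (5.01 to 6.61) without, a log2 ratio of 1.72 (1.52 to 1.93). Its files lay between 21 and 22 CPM with Pax7 and between 5.42 and 5.95 CPM without. Tgfb1 was 37.6 and 17.0 CPM, a log2 ratio of 1.10 (0.96 to 1.24). Fst was 16.8 and 68.2 CPM, a log2 ratio of -1.96 (-2.09 to -1.82), and Mstn 0.685 and 2.59 CPM, a log2 ratio of -1.09 (-1.41 to -0.73). The files, which read the same cells, did not overlap between the groups for Tgfbr3, Tgfb1, Fst and Mstn. Every other member also had a ratio of the same sign in every file, so this does not set these genes apart. The share of all genes that do so was not counted. The count was thus 2 members higher and 2 lower of 10, beside 7.72% of all genes higher and 4.24% lower. With TMM or DESeq2 scaling Tgfb1 left the count and Tgfb3 joined it, giving 1 higher and 3 lower. Just under the line lay Tgfbr2 at 0.97 (0.79 to 1.15) and Tgfb3 at -0.89 (-1.02 to -0.75).

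Cells with Pax7 were mostly low in Myog. Among cells at 1000 CPM or more of Myog, a choice made after the data were seen, Tgfbr3 and Fst stayed past 2-fold by Pax7. Tgfb1 and Mstn did not. Among cells under 100 CPM of Myog, the 4 ratios past 2-fold by Pax7 were all smaller. Of the 10 members, 0 were past 2-fold there, beside 0.572% of genes higher and 0.0534% lower. Fst was 12.4 and 10.4 CPM there, and Tgfb1 44.1 and 36.4 CPM. Tgfb3 had the other sign from that over all cells, at 16.9 CPM with Pax7 and 11.3 CPM without (log2 ratio 0.54, 0.15 to 0.93). Acvr2a (0.60) and Tgfbr1 (0.53) stood slightly above their ratios over all cells. The 2 members with the highest ratios were Tgfb2, at 211 CPM with Pax7 and 113 CPM without (log2 ratio 0.90, 0.78 to 1.03), and Tgfbr3, at 25.5 and 14.7 CPM (0.76, 0.42 to 1.11). Cells under 1000 CPM of Malat1, described below, held less of both genes. Over all Myog levels such cells made up 5.63% of the cells with Pax7 and 9.71% of those without. Their part in the ratios under 100 CPM of Myog was not tested. Over all cells Tgfb2 stood at 210.0 CPM with Pax7 and 193 CPM without, a log2 ratio of 0.12 that became -0.12 with TMM and -0.13 with DESeq2 scaling. Col3a1 was at 154 CPM with Pax7 and 73.9 CPM without, and its part in the Pax7 results was not tested.

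By division, Fst, Mstn and Tgfb3 were lower in the 1249 cells at 500 CPM or more of Mki67 plus Top2a than in the 2613 cells under 50. Mki67 and Top2a are genes of cycling cells. Fst stood at 13.9 CPM (12.3 to 15.7) in dividing and 80.3 CPM (77.1 to 83.6) in other cells, a log2 ratio of -2.45 (-2.62 to -2.27). Mstn was 0.516 and 3.01 CPM (log2 ratio -1.40, -1.74 to -0.97) and Tgfb3 18.0 and 43.0 CPM (-1.21, -1.38 to -1.05). The count was 3 members lower and 0 higher, beside 5.72% of all genes lower and 10.6% higher. The dividing cells were deeper, with a median of 14032 UMIs per file against 10702, and held fewer cells at 4000 CPM or more of Myog, 2.48% against 34.9%. Tgfb2 was 150.4 CPM (145 to 156) in dividing cells and 251 CPM (245 to 256) in the others, a log2 ratio of -0.73 (-0.80 to -0.67).

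Among cells under 100 CPM of Myog, the pattern by division was another. Tgfbr3 was then 13.3 CPM in dividing cells and 51.9 CPM in cells under 50 CPM of Mki67 plus Top2a, a log2 ratio of -1.89 (-2.18 to -1.59), although over all cells its ratio was only -0.28. Tgfb2 was 154 and 301 CPM (-0.96, -1.07 to -0.86), just under 2-fold. Tgfbr3 was the 1 member past 2-fold here, beside 2.76% of all genes lower and 5.91% higher. Among cells at 1000 to under 4000 CPM of Myog, a comparison added after the data were seen, the Tgfbr3 ratio by division had the other sign, at 0.61. In the lowest Myog bin, Fst (-0.32, -0.73 to 0.10), Mstn (0.06, -0.32 to 0.17) and Tgfb3 (-0.43, -0.79 to -0.05) were not past it.

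Crossing Myog, division and Pax7 gave 20 strata of at least 50 cells. The level of Tgfbr3 was highest in the 382 cells with Pax7, under 100 CPM of Myog and under 50 CPM of Mki67 plus Top2a, at 55.3 CPM (48.0 to 63.3) with 51.0, 57.8, 53.2 and 59.4 CPM in the 4 files. In the 102 cells alike but without Pax7 it was 39.9 CPM (28.8 to 53.7), and these intervals overlap. In the 561 dividing cells with Pax7 of the same Myog bin it was 15.1 CPM (12.5 to 18.0), and in the 124 dividing cells without Pax7 5.92 CPM (3.01 to 10.5). Tgfb2 also stood high in the first of these strata, at 339 CPM (321 to 358), against 165 CPM (142 to 191) without Pax7 and 166 CPM (157 to 175) in the dividing cells with Pax7. It was higher still, at 363 CPM, in the 177 non-dividing cells with Pax7 at 100 to under 1000 CPM of Myog. The coreceptor and the ligand it is known to present were thus both at or near their highest in non-dividing, Pax7-positive, Myog-poor strata. These strata were picked by their values. Over all 20 strata the levels of Tgfb2 and Tgfbr3 were only weakly related, with a Pearson's r of 0.326. Tgfbr2 was highest there too, at 30.4 CPM. Fst ran from 6.75 to 120 CPM over the strata, with its highest value in the non-dividing cells without Pax7 at 4000 CPM or more of Myog.

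**Figure D5:**
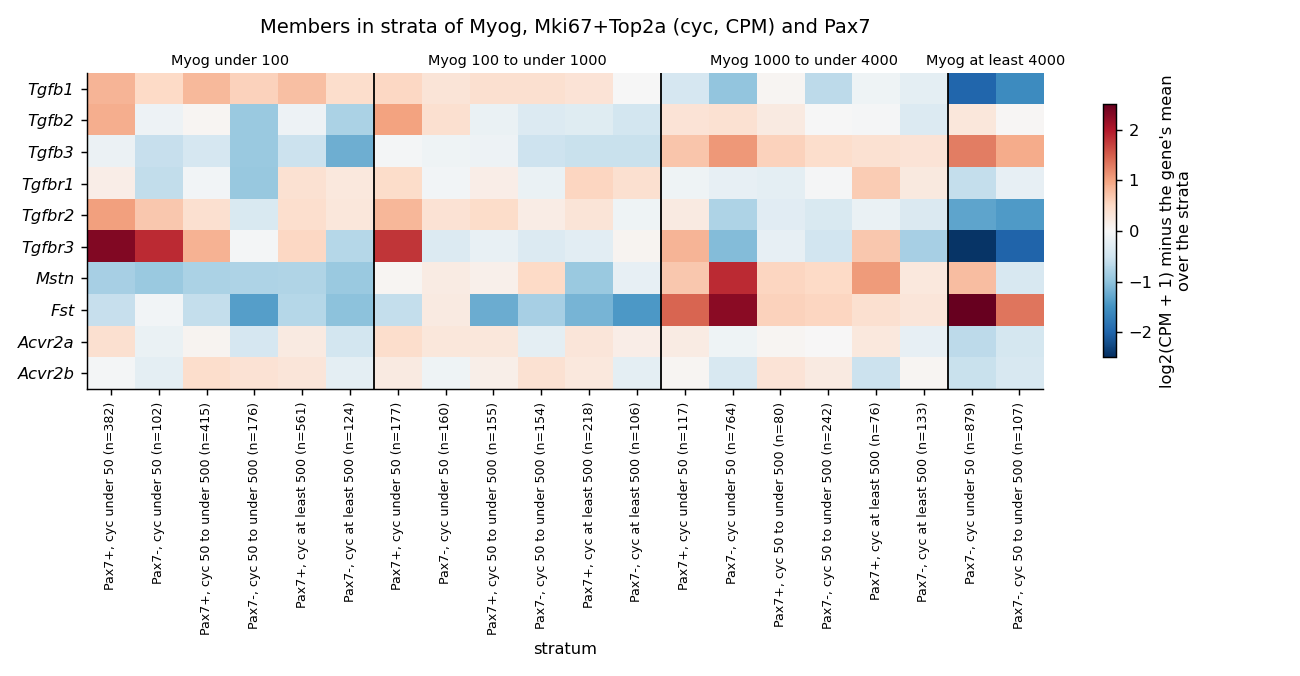
Level of each gene in 20 strata of cells by Myog (CPM, marked above), Mki67 plus Top2a (cyc, CPM) and Pax7 detection, as log2(CPM + 1) minus the gene's own mean over the strata (red higher, blue lower). Tgfbr3 is darkest red in the first stratum, at 55.3 CPM, and Fst in the non-dividing cells of the highest Myog bin, at 120 CPM.

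The genes whose levels followed each member most closely over these 20 strata, among 10728 genes with at least 200 UMIs per file, are given with Pearson's r as a description. The strata share libraries and depth. Tgfb1 was closest to Gnb4 (0.984), Sdc3 (0.980) and Tsc22d1 (0.979), and Tgfb3 to Trim55 (0.974), Samd4 (0.973) and Baiap2l1 (0.971). Fst was closest to Mpc1 (0.962), Herpud1 (0.959) and Tmsb4x (0.954). Tgfbr2 was closest to Ugcg (0.970), Sulf1 (0.970) and Fam114a1 (0.965), and Tgfbr3 to Bicd1 (0.928), Rcan2 (0.927) and Lpar1 (0.926). Tgfb2 was closest to Dync1i2 (0.927), Ubn2 (0.918) and Kdm7a (0.917). Tgfbr1 was closest to Nsd1 (0.947), Braf (0.929) and Luc7l2 (0.925), and Acvr2a to Usp9x (0.936), Zim1 (0.936) and Dpy19l3 (0.934). Mstn and Acvr2b have too few UMIs to be ranked so. Between members, r was 0.911 for Tgfb3 and Fst, 0.882 for Tgfb1 and Tgfbr2, 0.856 for Tgfbr2 and Tgfbr3, and -0.837 for Tgfb1 and Fst. These are the pairs farthest from 0, and r was 0.326 for Tgfb2 and Tgfbr3.

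The rest of the pathway was read from a list of 67 other genes, of which 53 passed the count filter. From the lowest to the highest Myog bin, 6 of the 53 were at least 2-fold higher, beside 8.62% of all genes, and 27 lower, beside 25.5%, with a median log2 ratio of -1.03 beside -0.38 for all genes. Among ligands 1 was higher and 4 lower of 7. The higher one was Inha (inhibin α), at 0.757 and 22.7 CPM (log2 ratio 3.75, 3.37 to 4.07), the highest of the list, while the activin subunit gene Inhbb went the other way, from 11.3 to 0.890 CPM (-2.70). Among the other receptors and coreceptors 0 were higher and 2 lower of 6, namely Eng (endoglin, -1.41) and Bmpr1b (-1.03).

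Among extracellular inhibitors and genes of latency, 2 were higher and 10 lower of 15, beside 8.62% and 25.5% of all genes. The 2 higher were Itgb6 and Chrd (chordin, a BMP antagonist). Itgb6, the β6 integrin subunit that releases latent TGF-β1 and TGF-β3, went from 33.0 to 243 CPM (2.84, 2.73 to 2.96). Chrd went from 0.538 to 9.96 CPM (2.83, 2.42 to 3.16). The other releasing subunit, Itgb8, went from 7.86 to 0.210 CPM (-2.87, -3.11 to -2.37), so that the β6 and β8 genes went in opposite directions. Fstl1, a follistatin-like secreted protein, went from 53.5 to 3.82 CPM (-3.51), opposite to Fst, and the latent TGF-β binding protein gene Ltbp2 from 26.2 to 1.98 CPM (-3.19).

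Of 16 Smads and regulators, 1 was higher and 5 were lower, close to the 8.62% and 25.5% of all genes. The higher one was Smad3, from 8.55 to 21.7 CPM (1.25). Among the lower were the inhibitory Smad7 from 94.5 to 27.4 CPM (-1.75) and Smad6 from 53.9 to 15.0 CPM (-1.78). Smad3 was not counted among cells under 50 CPM of Mki67 plus Top2a. There 0 of the 16 were higher and 5 lower, beside 8.24% and 25.0% of all genes. Of 9 genes known as targets, 2 were higher and 6 lower, beside the same shares of all genes. Ccn2 (connective tissue growth factor) went from 57.1 to 3.66 CPM (-3.65), while Acta2 (smooth muscle α-actin) went from 422 to 3277 CPM (2.95, 2.92 to 2.99) and Tagln (transgelin) from 16.2 to 56.6 CPM (1.75). The list of targets thus did not move as one. Acta2 and Tagln are smooth muscle genes known to be on in differentiating skeletal muscle cells too. Of the other pericyte and smooth muscle markers, Cspg4 stood at 12.5, Rgs5 at 5.07, Pdgfrb at 4.52 and Myh11 at 0.308 CPM over all cells. Notch3 went from 93.7 CPM in the lowest Myog bin to 5.70 CPM in the highest.

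By Pax7, 13 of the 53 pathway genes were higher in cells with Pax7, beside 7.72% of all genes, and 4 lower, beside 4.24%, with a median of 0.54 beside 0.22 for all genes. Among the highest ratios were those of Bmp6 (1.73), Itgb8 (1.54), Fstl1 (1.5) and Col1a2 (1.38), and the lowest those of Inha (-2.05), Chrd (-1.65), Itgb6 (-1.45), Acta2 (-1.45) and Tagln (-0.82). By division, 5 were higher, beside 10.6% of all genes, and 6 lower, beside 5.72%, with a median of 0.37 beside 0.16. Bambi (1.34), Ccn2 (1.22), Nog (1.21) and Smad9 (1.08) were among the higher, and Inha (-2.21), Chrd (-1.85), Acta2 (-1.56), Tagln (-1.53) and Itgb6 (-1.35) were the lowest. Among cells under 100 CPM of Myog, 1 of the 53 was higher by Pax7, beside 0.572% of all genes, and 2 were lower by division, beside 2.76%.

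A small set of 414 cells held under 1000 CPM of Malat1, a nuclear RNA, and these cells had less of most members. Tgfb2 was 74.1 CPM there and 209 CPM in the other 4783 cells (log2 ratio -1.48), Tgfbr1 8.21 and 29.2 CPM (-1.72), Acvr2a 8.65 and 38.6 CPM (-2.05), Tgfbr3 1.95 and 13.4 CPM (-2.31) and Fst 17.4 and 47.4 CPM (-1.41). These 5 members were lower and 0 higher, beside 21.4% of all genes lower and 0.282% higher. Tgfb1 stood apart at 36.2 and 25.4 CPM (0.49, 0.25 to 0.73). Such cells made up 10.1% of the lowest Myog bin and 5.59% of the highest. Leaving them out changed no member's call by Myog, Pax7 or division in the comparisons over all cells. They were not left out of the comparisons within a Myog bin.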

How the data were processed

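Droplet single-cell RNA was measured in 4 labelled replicates of 1 sorted group. The authors deposited whole-number UMI counts, not normalized, for each gene in each barcode. Cell Ranger 7.1.0 is named per the file headers, whereas the submitters' processing notes name Cell Ranger 3.1.0 and the builds mm10 and GRCm39. The build, annotation and use of intronic reads behind these counts are not given in the sources used here. Total UMIs per file ran from 62627341 to 68898900, with medians of 9962 to 10937 per barcode.

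The members and gene lists were chosen with earlier results of these data known. Bins of Myog, Pax7 and Mki67 plus Top2a were made from the 4 files together. UMIs were summed per group and file, expressed as CPM and averaged over files. Intervals are exact Poisson, Clopper-Pearson or conditional binomial intervals. Doublets were not called, and leaving out the 5% of cells with the most UMIs was an alternative. Ratios were also computed on simulated sums with known folds, drawn as independent Poisson counts for each file. That simulation held no variation between cells, so it cannot check the intervals of genes gathered in few cells.

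The pathway genes named in a comparison are the 5 at either end of its ratios, plus others named after their values were seen (Inhbb, Eng, Bmpr1b, Smad3, Smad6 and Smad7). A gene that this rule names is not reported here. Similar genes are the 3 with the highest r. Alternatives used edgeR 4.0.16 and DESeq2 1.42.0 for scaling factors alone. The work used Python 3.11.15, numpy 2.4.6, scipy 1.17.1, pandas 2.3.3 and R 4.3.3.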

Additional observations from a re-analysis of the deposited data

Results flagged for a closer look

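In 3 of 50 sets of values from the 4 files, 1 file stood apart from the other 3 by Dixon's 95% criterion, where chance alone gives about 5% of sets. The share of cells with an Acvr2a UMI was 15.2% in replicate 3 and 15.99% to 16.1% in the others. The log2 ratio of Tgfbr1 between the highest and lowest Myog bins was -0.50 in replicate 1 and -0.61 to -0.63 in the others. The log2 ratio of Tgfb2 between dividing and other cells was -0.71 in replicate 1 and -0.74 in each of the others. None of the 3 gaps changed a call.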

How the results depend on the processing

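The choice of cells mattered most. By Pax7, 4 members were past 2-fold over all cells, 0 among cells under 100 CPM of Myog and 2 among cells at 1000 CPM or more (the latter chosen after the data were seen, with 5.04% of all genes higher and 0.198% lower). By division, 3 were past it over all cells and 1 among cells under 100 CPM of Myog. In that same restriction 3 ratios that were past 2-fold over all cells changed sign, to values whose intervals hold 0. They were those of Fst (0.24, -0.17 to 0.66) and Mstn (0.079, -0.42 to 0.16) by Pax7 and of Mstn by division (0.063, -0.32 to 0.17). Mstn in that Myog bin rests on a mean of 2 UMIs per file. The sign also changed for 4 ratios that were not past 2-fold. Tgfb3 by Pax7 (from -0.89 to 0.54) and Tgfbr2 by division (from 0.37 to -0.57) had intervals clear of 0. Tgfb1 (from 0.87 to -0.08) and Acvr2a (from 0.23 to -0.17), both by division, had intervals that hold 0. The Myog count was 6, and it stayed between 5 and 7 in all alternatives run, including bins set from replicate 1 with levels from the other files and cells without Pax7. Leaving out each file in turn gave 6 by Myog, 4 by Pax7, 3 by division and 32 to 33 pathway genes by Myog, against 33. Of 550 member ratios compared with their main value, 441 stayed within the interval of that value. In all 16 changed sign, 3 of them from a value past 2-fold; the other 13 include 4 of Tgfb2 by Myog, 3 of Tgfb2 by Pax7 and 2 of Tgfbr3 by division. By Pax7, Tgfb1 fell under 2-fold with TMM or DESeq2 scaling and with thinning to 3000 UMIs, and Tgfbr2 passed it in 5 alternatives. Of 80 member levels, 13 moved beyond their interval, Tgfb2 between 196 and 228 CPM and Tgfbr3 between 11.7 and 17.1 CPM. Depth limits Mstn and Acvr2b most, with 114 and 120.0 UMIs per file. No paired analysis was possible because the 4 replicates belong to 1 group and hold the same cells.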
